A study of Mus musculus with 8 samples.

Results

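The genes that encode antibodies were examined in whole left kidneys of 8 male mice, 4 homozygous for a deletion in C1qtnf1 (KO) and 4 wild-type littermates (WT), as a readout of the antibody-secreting cells that a kidney holds. The genes were chosen by name and level: rows of the deposited expression table named as immunoglobulin V or constant genes (Ighv, Ighm, Ighg, Igha, Ighe, Igkv, Igkc, Iglv, Iglc), together with Igj, the J chain gene, and Mzb1, were kept if any mouse had a value above 0. The name fitted 233 rows, 48 of these were at 0 in all 8 mice, and the other 185 of the 35275 genes in the table are described here. They were 86 heavy chain V genes, 85 kappa V genes, 3 lambda V genes, 7 heavy chain constant genes, Igkc, Iglc2, Igj and Mzb1. The threshold lay at a single read: 18 of the 185 genes had 1 read over all mice together, 27 had 3 or fewer, and the 48 rows just outside had none. Only 54 genes were seen in all 8 mice and 23 in 1 mouse.

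All mice, KO and WT, were on a C57BL/6J background, 40 weeks old at collection, and on a high-fat diet with 60% of its energy from fat from 6 weeks of age. The KO allele, C1qtnf1 tm1Lex, came from 129S5/Sv embryonic stem cells, was backcrossed to C57BL/6J and lacks the coding part of the last exon in every cell. C1qtnf1 encodes CTRP1, a secreted protein related to adiponectin. RNA was selected on its poly-A tail, and values are FPKM (fragments scaled for the length of the gene and the depth of the library). Whole kidneys carry their blood, capsule, fat and urothelium with them, and no cells were sorted.

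An antibody is built from heavy chains and light chains, and each chain joins a variable (V) part that binds antigen to a constant part. A developing B cell picks 1 heavy V gene and 1 light V gene, kappa or lambda, and all its daughter cells keep that choice, so a clone of plasma cells puts its whole output onto the same V genes. The heavy constant gene sets the isotype: Ighm for IgM, made first and also held on the surface of resting B cells, Ighg1 to Ighg3 for the IgG classes, Igha for IgA, the antibody of mucosal surfaces, and Ighe for IgE. The J chain links IgA into dimers and IgM into pentamers, and Mzb1 encodes a chaperone of the endoplasmic reticulum in B and plasma cells.

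The germline 3′ ends of the V genes that ranked first in a mouse are shown because this is where V joins the rest of the chain. They are the last 60 bases of each GENCODE M21 transcript (build GRCm38), 5′ to 3′ on the coding strand. Capitals mark the 9 bases of a tyrosine codon, the codon after it and the conserved cysteine codon before the third antigen contact loop (CDR3), found by script. Ighv3-8, which ranked first in KO replicate 3, is not shown, because these codons were not found in the last 60 bases of its transcript.
Igkv6-20: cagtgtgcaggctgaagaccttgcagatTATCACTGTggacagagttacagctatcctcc
Igkv5-39: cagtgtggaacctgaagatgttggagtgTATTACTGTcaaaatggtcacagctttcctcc
Igkv1-110: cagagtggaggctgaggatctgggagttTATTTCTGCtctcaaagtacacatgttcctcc
Igkv1-117: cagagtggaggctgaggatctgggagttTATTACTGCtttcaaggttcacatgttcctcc
Igkv3-2: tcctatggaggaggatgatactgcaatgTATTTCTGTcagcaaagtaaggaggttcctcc
Ighv14-4: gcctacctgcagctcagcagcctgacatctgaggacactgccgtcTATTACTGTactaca
Ighv1-81: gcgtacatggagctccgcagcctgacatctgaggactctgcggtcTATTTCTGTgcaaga
Ighv1-26: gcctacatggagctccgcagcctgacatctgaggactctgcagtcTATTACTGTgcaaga
Ighv3-6: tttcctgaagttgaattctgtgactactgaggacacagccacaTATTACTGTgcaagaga
Iglv1: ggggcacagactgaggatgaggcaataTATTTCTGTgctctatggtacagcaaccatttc

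These stretches lie on chromosome 6 for the kappa genes, at chr6:70335841-70335900 (minus strand) for Igkv6-20, chr6:69900424-69900483 (minus) for Igkv5-39, chr6:68271208-68271267 (plus) for Igkv1-110, chr6:68121768-68121827 (plus) for Igkv1-117 and chr6:70699008-70699067 (plus) for Igkv3-2. The heavy chain stretches lie on the minus strand of chromosome 12, at chr12:114176438-114176497 for Ighv14-4, chr12:115920279-115920338 for Ighv1-81, chr12:114788372-114788431 for Ighv1-26 and chr12:114288152-114288211 for Ighv3-6. The Iglv1 stretch lies at chr16:19085017-19085076 on the minus strand. Igkv1-110 and Igkv1-117 end almost alike, and their transcripts share an exact run of 142 bases. Igkv6-20 shares 253 bases with Igkv6-29, a gene listed at 0 in all mice, Ighv1-26 shares 119 bases with Ighv1-34, and Ighv1-81 shares 66 with Ighv1-77. The split of reads between such relatives is uncertain.

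The libraries held 17884140 to 20344859 reads, worked out from the step size of the FPKM values. C1qtnf1 had 247 to 286 reads in each WT kidney and 15 to 40 in each KO kidney. Kidney genes were abundant in all 8 libraries, with Slc34a1, the proximal tubule phosphate transporter, at 2906 to 3767 FPKM. KO replicate 2 stood apart, with a summed FPKM of 525275 against 437496 to 450339 in the other 7 libraries, so KO against WT is given with and without it where it bears on a value. The tubule genes Lrp2 and Slc12a3 were low in it, at 83.5 and 151 FPKM against 188 to 217 and 293 to 350 in the other 7. Slc34a1 was lowest there too, whereas Aqp2, the water channel of the collecting duct, was highest there, at 364 FPKM. The reason was not tested. The labels describe separate mice. In whole kidneys, fewer antibody-secreting cells and less antibody RNA per cell cannot be told apart.

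Kappa light chain constant RNA was the most abundant immunoglobulin transcript in every kidney. Among the heavy chain constant genes, either Igha or Ighm was highest in each. Igkc measured 121, 197, 203 and 282 FPKM in WT replicates 1 to 4, and 178, 323, 78.8 and 106 FPKM in KO replicates 1 to 4. The highest kidney, KO replicate 2, held 4.10 times the level of the lowest, KO replicate 3, and the groups overlapped. Igkc rested on 469 to 1919 reads per mouse. All 185 genes together drew 2316 to 7430 reads a mouse, so the repertoire of each kidney was sampled thinly.

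Igha, the IgA constant gene, was the most variable of the abundant members. It measured 24.5, 103, 80.9 and 167 FPKM in the WT mice and 21.1, 97.1, 37.0 and 16.8 FPKM in the KO mice. WT replicate 4 lay 9.98 times above KO replicate 4, and WT replicate 1 lay among the low KO mice. Ighm, the IgM constant gene, measured 34.4, 17.2, 18.7 and 4.38 FPKM in WT and 31.1, 36.8, 15.5 and 19.6 FPKM in KO. The mouse with the most Igha, WT replicate 4, had the least Ighm, 4.38 FPKM from 127 reads.

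The IgG genes were lower. Ighg2c, the IgG2 gene of C57BL/6 mice, measured 3.91, 4.50, 9.92 and 9.98 FPKM in WT and 13.5, 9.24, 1.97 and 5.29 FPKM in KO. Ighg2b measured 4.78, 6.31, 5.51 and 2.34 FPKM in WT and 9.08, 10.3, 2.04 and 4.91 FPKM in KO. In both genes KO replicates 1 and 2 were high and KO replicate 3 was low, and the WT values lay inside the KO range for Ighg2c and Ighg2b alike.

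Ighg1 was at 0.404 to 0.499 FPKM in WT replicates 1, 2 and 4 and at 2.19 FPKM, 41 reads, in WT replicate 3. In the KO mice it measured 0.861, 0.893, 0.334 and 1.75 FPKM. Ighg3, an IgG class tied to responses to bacterial polysaccharides, measured 1.09, 0.708, 0.262 and 0 FPKM in WT and 0.958, 0.0548, 0.109 and 0.0505 FPKM in KO, or 61 reads over all mice. Ighe appeared in 1 kidney only, WT replicate 1, with 2 reads. The 0 reads of the other 7 kidneys allow an IgE share of at most 0.0760% to 0.258% of heavy chain constant reads, by the limit of 3 reads. Ighg2b and Ighg3 share an exact run of 88 bases, Ighg2c and Ighg2b 78 and Ighg1 and Ighg2b 59, whereas the longest run that Igha shares with any other immunoglobulin gene is 13 bases. The split of reads among the IgG classes is therefore uncertain.

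**Figure D1:**
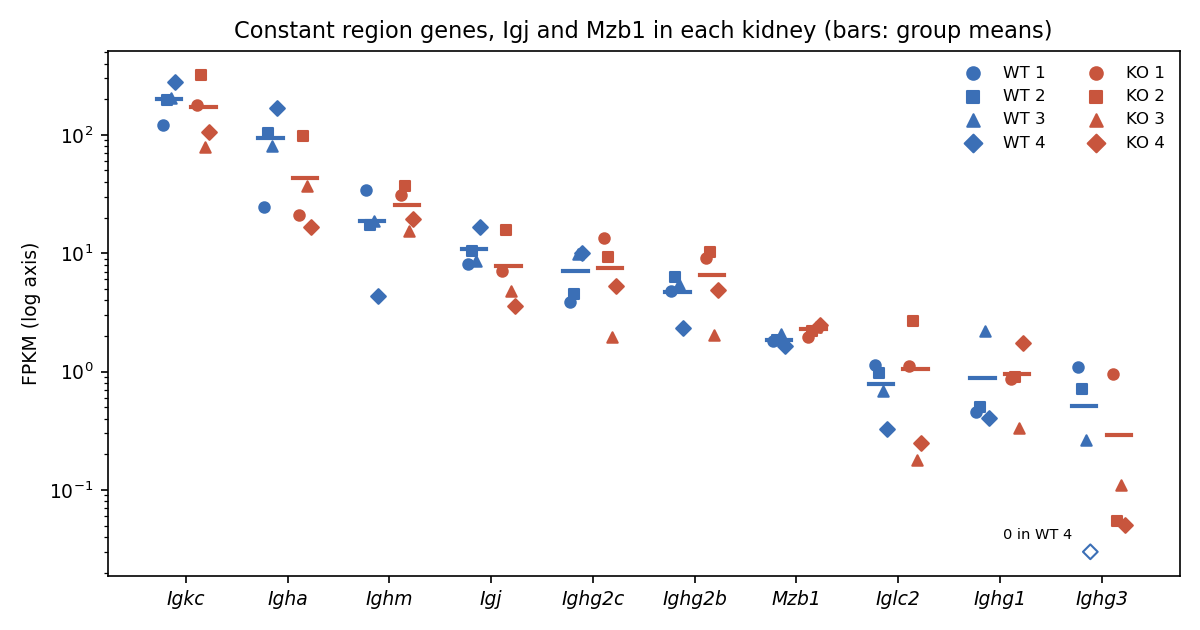
FPKM of the light and heavy chain constant genes, Igj and Mzb1 in each of the 8 kidneys, on a log axis; each symbol is a mouse, blue for WT and red for KO, horizontal bars are group means, and the open symbol is a value of 0. WT and KO values overlap for every gene, and Mzb1 varies least, between 1.63 and 2.49 FPKM.

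The genes lie in order on the minus strand of chromosome 12, Ighm at chr12:113418558-113422730, Ighg3 at chr12:113356224-113361232, Ighg1 at chr12:113325240-113330523, Ighg2b at chr12:113302965-113307933, Ighg2c at chr12:113285325-113288932, Ighe at chr12:113269260-113273248 and Igha at chr12:113254830-113260236. This is the order in which class switching can reach them. Igkc lies at chr6:70726435-70726966 (plus strand), Iglc2 at chr16:19198396-19200351 (minus) and Igj at chr5:88519809-88527891 (minus).

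Set against each other as shares of the summed heavy chain constant FPKM, the isotypes led differently from mouse to mouse. IgA held 78.0%, 68.8% and 90.7% in WT replicates 2, 3 and 4 and 62.9% and 65.0% in KO replicates 2 and 3. In WT replicate 1 it held 35.4%, and in KO replicates 1 and 4 27.5% and 34.7%. In those last 3 mice IgM held the largest share, 49.7%, 40.6% and 40.5%, whereas in the others it held 13.0%, 15.9%, 2.38%, 23.9% and 27.2%. Kidneys led by IgA and kidneys led by IgM occurred in both genotypes.

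IgG made up 14.8%, 9.06%, 15.2% and 6.90% of heavy chain constant FPKM in WT and 31.9%, 13.3%, 7.82% and 24.8% in KO. KO replicates 1 and 4 lay above every WT mouse, and KO replicates 2 and 3 within the WT range. The mean IgA share was 68.2% ± 23.6 in WT and 47.5% ± 19.2 in KO (SD, n = 4 each), the mean IgM share 20.2% ± 20.5 and 33.0% ± 8.79, and the mean IgG share 11.5% ± 4.16 and 19.5% ± 10.9. All 3 differences were smaller than the larger of the 2 SDs, and the groups overlapped for each isotype. Shares of reads in place of FPKM, with no correction for length, put IgA between 23.3% (KO replicate 1, exact Clopper-Pearson 95% interval 21.3 to 25.4) and 89.1% (WT replicate 4, 88.1 to 90.1). Lengths matter here, because the values fit a length of 1034 bases for Igha and 1424 for Ighm, and the exons in GENCODE M21 come to 2668 and 1886. At the M21 lengths IgA held at most 82.8% and IgM 4.23% to 62.5%, and the same mice were led by IgM.

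Without IgM, IgA held 70.4%, 89.6%, 81.9% and 92.9% of the switched isotypes in WT and 46.3%, 82.5%, 89.3% and 58.3% in KO. The share was lowest in KO replicates 1 and 4, the mice with the largest IgG share. Within IgG, Ighg2c and Ighg2b together led in every mouse. Ighg2c held 37.5% to 78.5% of IgG in WT and 44.1% to 55.4% in KO, Ighg2b 18.4% to 52.5% and 37.2% to 50.4%. The split within IgG depends on the lengths in use: the values fit 1010 bases for Ighg2b and 1212 for Ighg2c, and the M21 exons come to 2678 and 1326. Ighg1 held 12.2% of IgG in WT replicate 3 and 14.6% in KO replicate 4, against 3.18% to 7.50% elsewhere.

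**Figure D2:**
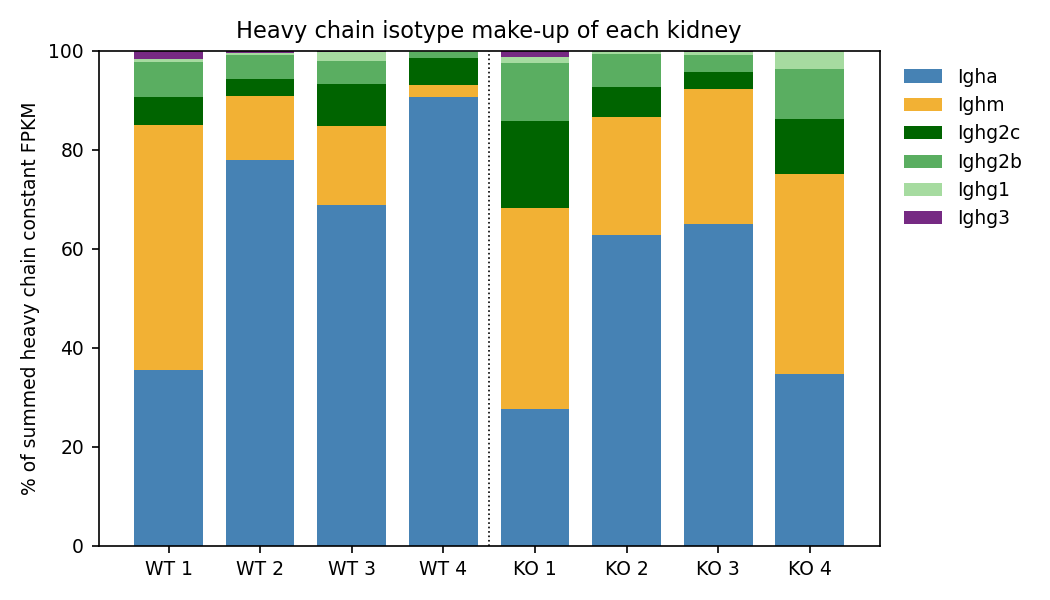
Share of each heavy chain constant gene in the summed heavy chain constant FPKM of a kidney, in percent; each bar is a mouse, WT left and KO right of the dotted line. IgA (blue) ranges from 27.5% to 90.7%, and WT replicate 1 resembles KO replicates 1 and 4 in its large IgM part (yellow).

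Igj was high where Igha was high. It measured 8.14, 10.3, 8.63 and 16.7 FPKM in WT and 7.10, 15.6, 4.83 and 3.56 FPKM in KO, highest in WT replicate 4 and KO replicate 2, where Igha was high too. Over the 8 mice, log2(FPKM + 1) of Igha and Igj had a Pearson r of 0.84 (exact permutation p = 0.0090, Benjamini-Hochberg adjusted 0.072) and a Spearman rho of 0.90 (exact permutation p = 0.0046, adjusted 0.037), two-sided and adjusted over 8 relations. Without the 2 mice farthest from the median of Igha, WT replicate 4 and KO replicate 4, r was 0.66. Ighm and Igj had an r of -0.25 and a rho of -0.12 (exact permutation p = 0.57 and 0.79, adjusted 0.65 and 0.79). The pairs of genes were picked after their values were seen, and 4 mice per genotype are too few for a value within each. Igj came to 0.0858 to 0.138 of the summed FPKM of Igha and Ighm, a narrower range than that of any constant gene.

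Mzb1 varied little between mice. It measured 1.80, 1.85, 2.07 and 1.63 FPKM in WT and 1.98, 2.22, 2.40 and 2.49 FPKM in KO, a 1.53-fold range over all mice on 30 to 45 reads each. The mice with the lowest Igkc, KO replicates 3 and 4, had the highest Mzb1. The relation of Mzb1 to Igkc was negative and weak, with an r of -0.50 and a rho of -0.40 (exact permutation p = 0.21 and 0.33, adjusted 0.33 and 0.65), and an r of -0.16 without the 2 farthest mice.

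Light chain RNA was mostly kappa. Iglc2, the only lambda constant row in the table, measured 1.14, 0.980, 0.687 and 0.324 FPKM in WT and 1.11, 2.69, 0.179 and 0.248 FPKM in KO, on 2 to 30 reads. Its share of light chain constant FPKM was 0.932%, 0.496%, 0.337% and 0.115% in WT and 0.618%, 0.826%, 0.227% and 0.233% in KO, with means of 0.470% ± 0.345 and 0.476% ± 0.297 (SD, n = 4 each). Shares of reads were about double, 0.216% to 1.73%, because the length behind Igkc, 323 bases, is shorter than the 606 behind Iglc2. Iglc2 shares 79 bases with Iglc3, and lambda constant genes other than Iglc2 were not analysed here, so the Iglc2 share may miss lambda RNA.

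The V genes gave a larger lambda share. Lambda V genes held 6.88%, 6.45%, 5.69% and 7.20% of light chain V FPKM in WT and 4.70%, 10.2%, 3.86% and 4.10% in KO. KO replicate 2 was high and the other 3 KO mice lay below all WT mice. Summed lambda V FPKM was 4.44 to 25.9 times that of Iglc2, whereas summed kappa V FPKM was 0.350 to 0.845 times that of Igkc. In every kidney the lambda share from V genes was thus higher than that from Iglc2.

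Iglv1 carried nearly all lambda V signal. It measured 6.04, 4.46, 3.85 and 8.12 FPKM in WT and 4.30, 11.2, 1.85 and 2.28 FPKM in KO, and held 79.6% to 96.7% of lambda V reads in WT and 85.7% to 100% in KO. In KO replicate 4 all 16 lambda V reads were Iglv1 (exact 95% interval 79.4 to 100). Iglv2 was seen in 5 of 8 mice and Iglv3 in 5 of 8, at no more than 1.25 and 0.808 FPKM. Iglv1 and Iglv2 share a run of 104 bases, so their split is uncertain.

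Among kappa V genes the leader differed between kidneys, with 5 genes leading in 8 mice. In WT replicate 1 Igkv6-20 held 153 of 716 kappa V reads, 21.4% (exact 95% interval 18.4 to 24.6). In WT replicates 2 and 3 Igkv1-117 held 12.9% (10.1 to 16.2) and 15.0% (11.9 to 18.6), and in WT replicate 4 Igkv1-110 held 141 of 760 reads, 18.6% (15.9 to 21.5). In KO replicates 1 and 2 Igkv5-39 held 20.9% (17.7 to 24.5) and 13.5% (11.1 to 16.2), in KO replicate 3 Igkv1-117 held 19.7% (15.4 to 24.5) and in KO replicate 4 Igkv3-2 held 20.1% (16.1 to 24.6).

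These leaders were far lower in most other mice. Igkv6-20 measured 21.7 FPKM in WT replicate 1, 2.02, 1.50 and 0 FPKM in the other WT mice and 1.77, 2.19, 1.25 and 2.45 FPKM in the KO mice. Its 0 of 760 reads in WT replicate 4 allow a share of up to 0.395%. Igkv5-39 measured 6.19, 4.51, 2.54 and 4.11 FPKM in WT and 24.2, 18.0, 3.59 and 3.14 FPKM in KO. KO replicates 1 and 2 lay above all other mice, and KO replicates 3 and 4 lay inside the WT range.

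Igkv1-110 measured 3.57, 5.72, 4.78 and 19.3 FPKM in WT and 3.12, 5.60, 2.72 and 2.79 FPKM in KO. Its near copy Igkv1-117 measured 4.67, 9.63, 10.3 and 10.5 FPKM in WT and 1.87, 3.03, 9.37 and 3.63 FPKM in KO. The pair did not move in step: WT replicate 4 had far more Igkv1-110 than WT replicate 3 at a like level of Igkv1-117. Igkv3-2 measured 10.2, 1.50, 3.62 and 2.60 FPKM in WT and 6.85, 5.30, 3.33 and 10.3 FPKM in KO, with 74 reads each in WT replicate 1 and KO replicate 4.

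Heavy chain V genes also had different leaders in different mice, on 131 to 304 reads per mouse. Ighv14-4 led in WT replicate 1 with 51 of 277 reads, 18.4% (exact 95% interval 14.0 to 23.5), and had 0 reads in WT replicate 4 and KO replicate 4. Ighv1-81 led in WT replicates 2 and 4 with 13.0% (9.11 to 17.8) and 15.1% (11.3 to 19.7), and Ighv1-26 in WT replicate 3 with 9.96% (6.55 to 14.4). In the KO mice, Ighv3-6 led in replicate 1 with 13.4% (9.62 to 18.0) and in replicate 2 with 7.46% (4.24 to 12.0), Ighv3-8 in replicate 3 with 11.3% (6.70 to 17.4) and Ighv1-26 in replicate 4 with 11.5% (6.55 to 18.2). Several leads were small. In WT replicate 3 the leader had 25 reads and the next gene 18. In KO replicates 2, 3 and 4 the leaders had 15, 17 and 15 reads and the next genes 11, 14 and 12. The intervals of the first and second gene overlapped in all mice but WT replicates 1 and 4, so the heavy chain leader of the others is uncertain. The leading heavy and light chain genes cannot be joined into antibodies, since bulk RNA does not keep the pairs of a cell.

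By FPKM, Ighv14-4 measured 7.55, 1.30, 2.66 and 0 in WT and 1.51, 0.816, 0.815 and 0 in KO. Ighv1-81 measured 1.55, 5.08, 2.67 and 6.44 FPKM in WT and 1.91, 0.310, 0.464 and 0.999 FPKM in KO. Ighv3-6 measured 1.87, 2.05, 1.67 and 2.73 FPKM in WT and 6.05, 2.38, 0.635 and 1.61 FPKM in KO. Ighv14-4 and Ighv3-6 were each high in 1 mouse, whereas Ighv1-81 was higher in 3 WT mice than in any KO mouse. Ighv1-26 lay between 0.703 and 3.71 FPKM, Ighv9-3 between 0.700 and 3.82 with its highest value in KO replicate 1, and Ighv3-8 between 0 and 2.66 with its highest value in KO replicate 3.

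**Figure D3:**
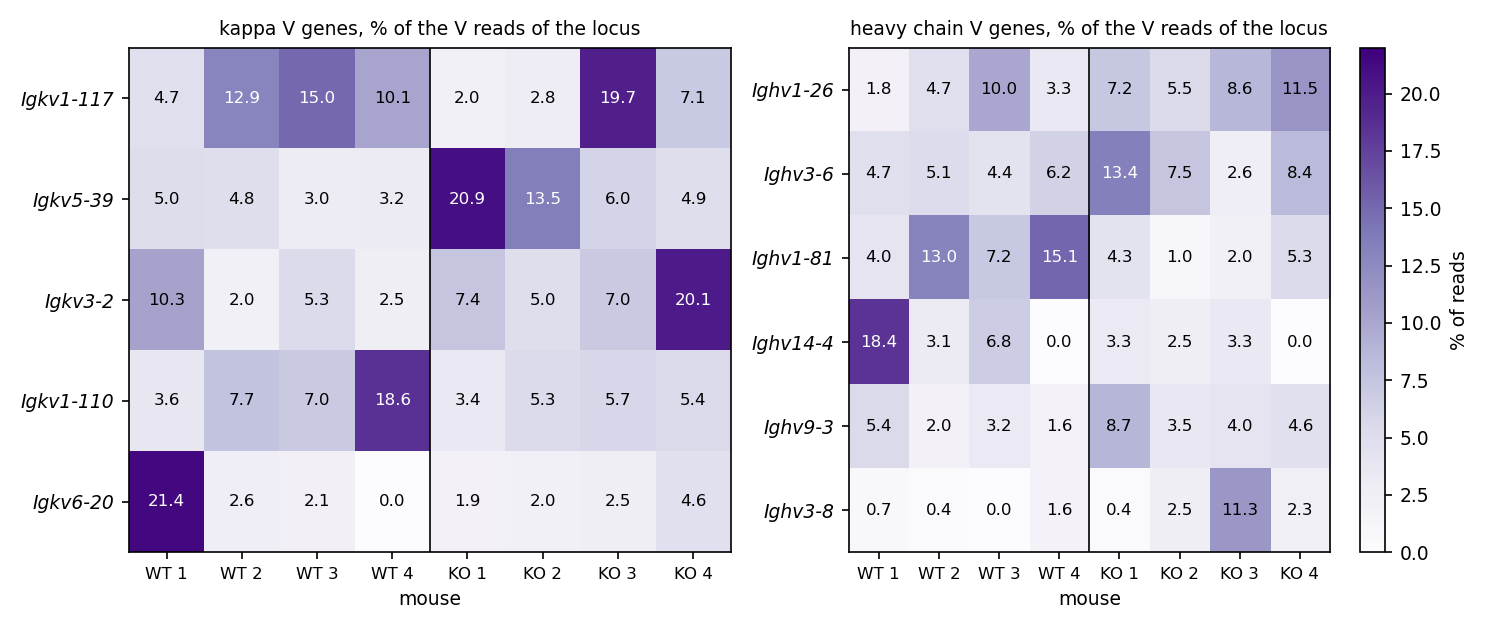
Share of the kappa V reads (left) and heavy chain V reads (right) of a mouse held by the V genes with the highest mean FPKM or the highest value in a mouse, in percent; columns are mice, WT left and KO right of the line, and darker cells are larger shares. Igkv6-20 reaches 21.4% in WT replicate 1 and stays at or below 4.62% in the other 7 mice, and no heavy chain V gene passes 18.4%.

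No V gene held most of the reads of a kappa or heavy chain locus in any mouse. The effective number of kappa V genes (inverse Simpson index, the number of equally used genes that would give the same concentration) was 13.9, 26.0, 22.6 and 16.4 in WT and 11.0, 22.2, 16.1 and 14.6 in KO, with means of 19.7 ± 5.55 and 16.0 ± 4.70 (SD, n = 4 each). For heavy chain V genes it was 18.2, 25.9, 24.5 and 21.9 in WT and 20.5, 32.7, 20.0 and 18.8 in KO, with means of 22.6 ± 3.37 and 23.0 ± 6.50. The genotypes overlapped at both loci, and the differences were smaller than the spread within a genotype. KO replicate 2 had the most even heavy chain use, and WT replicate 1 and KO replicate 1 the most skewed kappa use.

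The top V gene of a locus held 16.5% ± 3.89 of kappa V FPKM in WT and 19.5% ± 3.51 in KO, and 14.0% ± 3.80 and 10.8% ± 2.46 of heavy chain V FPKM (SD, n = 4 each). At an equal 315 kappa V reads per mouse, 49.7 to 58.5 kappa V genes were expected to be seen, and at 131 heavy chain V reads 37.2 to 48.3 heavy chain V genes.

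At the lengths that the values fit, the kappa and heavy chain V genes summed to less FPKM than the constant genes they join. This ratio depends on the gene lengths in use. Kappa V FPKM summed to 0.396, 0.350 and 0.385 of Igkc in WT replicates 2 to 4 and to 0.560, 0.353, 0.636 and 0.503 in the KO mice, but to 0.845 in WT replicate 1. The deposited Igkc values fit a length of 323 bases, whereas its M21 exons span 532, and at M21 lengths the kappa ratio was 0.530 to 0.956 in 7 mice and 1.29 in WT replicate 1. Heavy chain V FPKM summed to 0.580, 0.301, 0.323 and 0.236 of the heavy chain constant FPKM in WT and 0.585, 0.205, 0.421 and 0.397 in KO. WT replicate 1 and KO replicate 1 were the highest for the heavy chain, and both were mice with a small IgA share. KO replicate 4, whose IgA share was small too (34.7%), lay at 0.397, below KO replicate 3 at 0.421 with an IgA share of 65.0%. At M21 lengths the heavy chain ratio was 0.384 to 0.905, with WT replicate 1 and KO replicate 1 again highest.

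**Figure D4:**
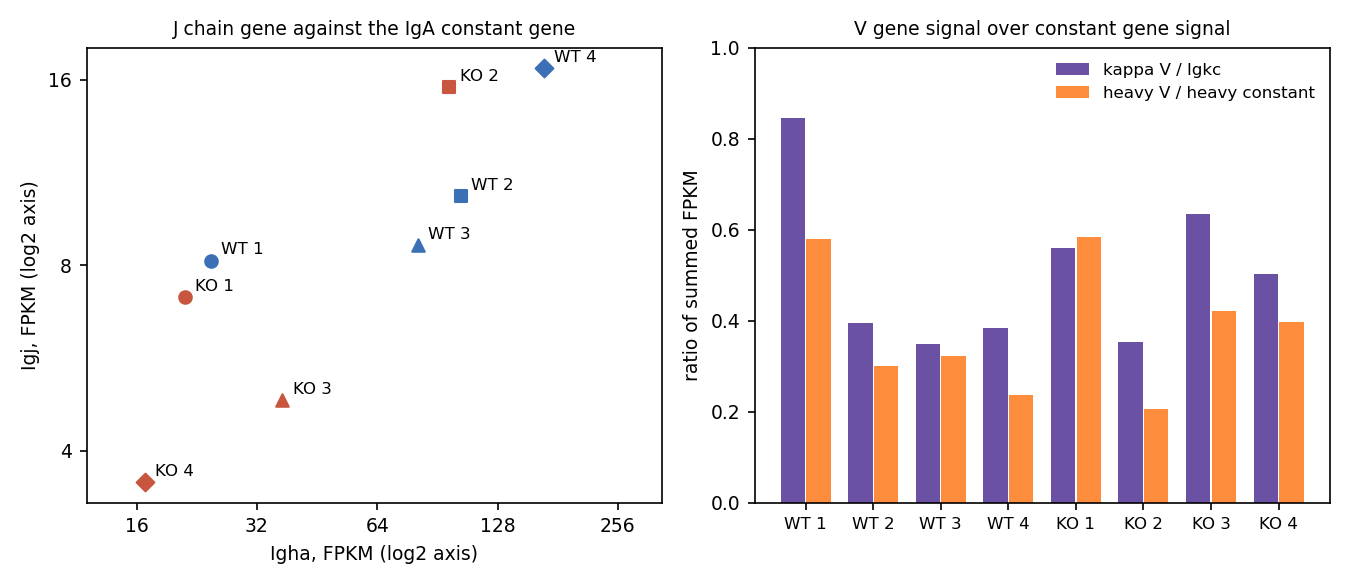
Left, Igj against Igha in FPKM with both axes on a log2 scale, each point a labelled mouse. Right, ratio of summed kappa V FPKM to Igkc and of summed heavy chain V FPKM to summed heavy chain constant FPKM in each mouse; the kappa ratio of WT replicate 1, 0.845, stands above the others at 0.350 to 0.636.

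The fit of KO against WT over all genes asked whether the deletion of C1qtnf1 changed any of these genes. It called 6 of 22945 genes at an adjusted p under 0.05 (limma, Benjamini-Hochberg), 3 higher and 3 lower in KO, which is 0.0261% of the genes tested. C1qtnf1 was among the 3 lower genes. The count was 2 without any 1 of the WT mice, 11 without KO replicate 2 and 10 without KO replicate 3.

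Among the constant genes, Igj and Mzb1, 0 of 11 passed the test in limma, with adjusted p between 0.861 and 0.995, and 1 of the 11, Mzb1, had an unadjusted p under 0.05. With limma-voom on the recovered reads, 0 of 11 passed and 0 had an unadjusted p under 0.05. With limma and array weights, 0 of 11 passed and 4 had an unadjusted p under 0.05. Of all genes tested, 5.56% had an unadjusted p under 0.05 in limma without these weights. That share was not counted with limma-voom or array weights, so their counts cannot be set against it. Igha was the furthest from 0, with a log2 fold change of -1.14 (SE 0.68, 95% interval -2.68 to 0.40, adjusted p = 0.861 by limma, n = 4 and 4), lower in 3 of 4 KO mice than in 3 of 4 WT mice. This interval holds both no change and a large loss. The log2 fold change was -1.67 without KO replicate 2 (adjusted p = 0.486 by limma) and -1.69 without WT replicate 1 (adjusted p = 0.915), and -0.77 without WT replicate 4 (adjusted p = 0.922).

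Ighm had a log2 fold change of 0.67 (SE 0.52, adjusted p = 0.861 by limma), which came to 0.14 without WT replicate 4, the mouse with little IgM, and to 1.03 without WT replicate 1. Igkc had -0.35 (SE 0.44, adjusted p = 0.872) and Igj -0.56 (SE 0.40, adjusted p = 0.861), and neither passed without any 1 mouse. The Igkc value was -0.75 without KO replicate 2 and -0.59 without WT replicate 1, but -0.18 without KO replicate 4, -0.16 without WT replicate 4 and -0.045 without KO replicate 3 (adjusted p between 0.565 and 0.973 by limma). That of Igj was -0.95 without KO replicate 2, -0.35 without WT replicate 4 and -0.29 without KO replicate 4 (adjusted p between 0.400 and 0.922 by limma). Mzb1 had 0.22 (SE 0.091, adjusted p = 0.861), with KO replicate 1 inside the WT range. On the log2(FPKM + 1) scale the IgG genes lay between -0.22 (Ighg3, SE 0.26) and 0.31 (Ighg2b, SE 0.42; 0.034 without KO replicate 2 and 0.70 without KO replicate 3), and Iglc2 at 0.088 (SE 0.35). The signs of Ighg2c, Ighg1 and Iglc2 changed with the setting or with the mice included, so no direction is given for them.

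**Figure D5:**
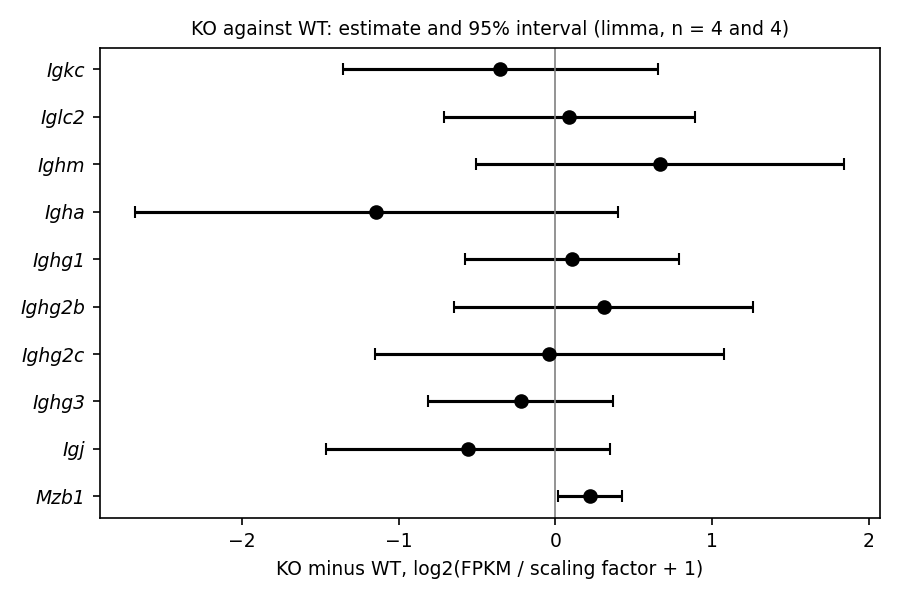
Difference KO minus WT on the scaled log2(FPKM + 1) scale for the constant genes, Igj and Mzb1, with limma estimates (points) and their 95% intervals (bars), from 4 KO and 4 WT kidneys. All intervals but that of Mzb1 cross 0, Igha has the widest, and after adjustment over all genes none passes.

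Of all 185 immunoglobulin genes, 0 passed in limma and 0 in limma-voom. At an unadjusted limma p under 0.05, 17 did (9.19%), 4 higher and 13 lower in KO, against 5.56% of all genes tested. The limma-voom count was 20, for which the share over all genes was not counted. Fold changes were above 0 for 70 and below 0 for 115 genes, with a median log2 fold change of -0.055 against 0.0011 over all genes tested. In 4 of the 185 (2.16%) the KO and WT values did not overlap, against 4.0% of all genes tested. V genes of a kidney share its plasma cells, and 27 of the 185 genes had 3 reads or fewer, so these counts do not stand for independent genes.

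The 3 V genes with the lowest p were all lower in KO and none passed. Ighv1-15 had 3, 8, 4 and 8 reads in WT and 0, 1, 1 and 1 in KO (log2 fold change -0.72, SE 0.15, adjusted p = 0.415 by limma). Igkv5-45 had 2, 5, 1 and 2 reads in WT and none in KO (-0.43, SE 0.12, adjusted p = 0.649). Igkv3-10, at chr6:70572633-70573230 on the plus strand, had 44, 7, 9 and 31 reads in WT and 6, 1, 1 and 3 in KO, or 6.10, 1.06, 1.32 and 4.28 FPKM against 0.942, 0.153, 0.152 and 0.422 (-1.39, SE 0.38, adjusted p = 0.685). The groups of these 3 genes did not overlap. Those of Ighv1-78, named after its values were seen, met in reads, with 2, 0, 1 and 1 in WT and 2, 2, 3 and 2 in KO, and were apart in FPKM only by the depths of the libraries, at 0.335 in WT replicate 1 and 0.341 in KO replicate 4.

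The companion genes of B and plasma cells gave 0 calls too. Of the B cell list (surface receptors and transcription factors such as Cd79a and Pax5), 17 of 19 were in the table, all above 0 in some mouse, and 0 were called in either direction, with 5 of 17 fold changes above 0 and a median of -0.077. Its 2 lowest p belonged to Fcrla (log2 fold change -0.13, SE 0.079) and Vpreb3 (-0.15, SE 0.10), both with an adjusted p of 0.861 by limma. The summed level of the list was 12.9, 12.6, 4.98 and 3.48 FPKM in WT and 8.01, 7.45, 6.15 and 7.19 FPKM in KO. WT replicates 3 and 4 were thus low in B cell genes, and WT replicate 4 was also the mouse with the least Ighm and the most Igha.

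Cd79a, the signalling partner of surface antibody, named after its values were seen, measured 2.91, 2.56, 0.786 and 0.540 FPKM in WT and 1.84, 1.60, 1.86 and 1.20 FPKM in KO. Over the 8 mice, Ighm and Cd79a had an r of 0.65 and a rho of 0.31 (exact permutation p = 0.071 and 0.46, adjusted 0.19 and 0.74), with an r of 0.39 without the 2 mice farthest in Ighm. Igha and Cd79a had an r of -0.41 and a rho of -0.24 (exact permutation p = 0.30 and 0.58, adjusted 0.40 and 0.78), with an r of -0.35 without the 2 farthest. None of these held after adjustment.

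Red cell genes ran the other way in WT, with a summed level of 455, 517, 1154 and 1332 FPKM, and 699, 972, 980 and 810 FPKM in KO. Hba-a2 (log2 fold change 0.72, SE 0.44, adjusted p = 0.861 by limma) and Hbb-bt (0.24, SE 0.35, adjusted p = 0.886), globin genes with near copies, had the lowest p of that list. The part of blood content in the isotype shares was not tested.

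Of the plasma cell list 14 of 14 were above 0 and 0 were called, with 7 fold changes above 0. Tnfrsf17, which encodes BCMA, a survival receptor of plasma cells, measured 0.182, 0.199, 0.0638 and 0.181 FPKM in WT and 0, 0.0667, 0 and 0 FPKM in KO (log2 fold change -0.18, SE 0.044, adjusted p = 0.553 by limma). It rested on 3, 3, 1 and 3 reads in WT and on 1 read in KO replicate 2. Xbp1, a transcription factor of secretory cells that tubules use as well, stood at 58.6 to 77.8 FPKM in WT and 72.9 to 94.5 FPKM in KO (0.22, SE 0.10, adjusted p = 0.861).

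Genes of early B cells and of switching were near or at 0. Rag1, Rag2 and Vpreb2, needed to assemble antibody genes or to make the early receptor, were at 0 in all mice. Of the 9 genes listed 6 were above 0 and 0 were called. Vpreb1 (log2 fold change 0.26, SE 0.12) and Igll1 (0.054, SE 0.036) had the lowest p, each with an adjusted p of 0.861 by limma.

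Of 12 antibody receptor and transport genes 11 were above 0 and 0 were called, with Fcer1a at 0. Pigr, which carries IgA and IgM across epithelia, measured 83.1, 72.5, 87.3 and 77.9 FPKM in WT and 52.9, 52.2, 67.8 and 117 FPKM in KO. Fcamr, a receptor for IgA and IgM, had a log2 fold change of -0.46 (SE 0.25) and Fcgr2b, the inhibitory IgG receptor, of -0.15 (SE 0.078), each with an adjusted p of 0.861 by limma. Pigr was named after its values were seen.

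Of 15 genes that attract or sustain B and plasma cells 0 were called. Ccl28, a chemokine for IgA plasma cells, measured 2.94, 3.93, 2.42 and 5.88 FPKM in WT and 6.90, 9.01, 6.61 and 3.84 FPKM in KO (log2 fold change 0.68, SE 0.27, adjusted p = 0.861 by limma). Il6 was at 0 to 0.199 FPKM in WT and at 0 in KO (-0.11, SE 0.049, adjusted p = 0.861), and rested on only 0, 4, 2 and 1 reads in WT.

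The lists of other cells also gave 0 calls, and their levels are given for the mice that differed. Of 7 urothelial genes all 7 fold changes were above 0, 4 did not overlap between the groups, against 4.0% of all genes tested, and their summed level was 3.98 to 10.2 FPKM in WT and 14.8 to 34.1 FPKM in KO. Psca (log2 fold change 1.91, SE 0.36) and Upk3a (1.15, SE 0.22) had the lowest p, both with an adjusted p of 0.389 by limma. Class II antigen presentation genes summed to 542 to 620 FPKM in WT and 476 to 1540.4 FPKM in KO, the highest in KO replicate 4. T and NK cell genes summed to 7.22 to 14.5 and 8.19 to 18.4 FPKM, myeloid genes to 46.3 to 50.5 and 45.6 to 68.1, adipose genes to 0.231 to 4.92 and 0.845 to 5.30, and kidney genes to 5584 to 6450.0 and 4770.1 to 6169. Their lowest p belonged to H2-DMa (log2 fold change 0.44, SE 0.30) and H2-Ab1 (0.45, SE 0.34) for class II, Ncr1 (-0.13, SE 0.078) and Gzma (-0.19, SE 0.13) for T and NK cells, and Csf1r (0.19, SE 0.097) and Lyz2 (0.19, SE 0.17) for myeloid cells. In the same way Retn (0.095, SE 0.043) and Lep (0.15, SE 0.071), which encode the fat hormones resistin and leptin, led the adipose list. Of the kidney list it was Aqp2, the water channel of the collecting duct (0.63, SE 0.19, adjusted p = 0.756 by limma), and Umod, the uromodulin gene (-0.21, SE 0.11), and all of these but Aqp2 had an adjusted p of 0.861. The part of urothelium, fat and other cells in the antibody values was not tested.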

How the data were processed

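A single table with 8 mouse columns was used, and its header states no unit. The authors scaled reads by gene length and library size before depositing them, judging by the file's values: these are whole multiples of a step that falls with gene length, and they were taken as deposited FPKM. The submitters' processing notes list CASAVA, STAR 2.5 and HTSeq 0.6.1, as well as DESeq2, and the build mm10. What each tool did, the annotation and the use of strand are not stated in the labels. With fitted gene lengths, 22911 of the 22945 genes above 0 (99.9%) and all 185 immunoglobulin genes gave whole reads within 0.0001 reads. Positions and sequences came from GENCODE M21 by identifier (34490 of 35275 genes).

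A count test was planned for counts only. Here limma 3.58.1 (R 4.3.3, trend and robust options) was fitted on log2(FPKM divided by a trimmed-mean factor, plus 1) for every gene above 0 in any mouse, with Benjamini-Hochberg adjustment at 0.05. Low genes' changes are understated on this scale. Isotype shares, light chain shares, the top V gene's share and the inverse Simpson index were computed per mouse and not tested. Intervals are exact (95%). They and the limits for 0 reads (3 reads) hold counting error alone, because copies made by PCR carry no mark. Alternatives covered filters, pseudocount, scaling, limma-voom, array weights, leaving out each mouse and, chosen after seeing the data, M21 exon lengths.

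Named genes are C1qtnf1, all constant genes, Igj, Mzb1, the 5 V genes per class with the highest mean and each mouse's highest, the 3 V genes with the lowest p, and the 2 lowest p per companion list. The members and lists were chosen with earlier results of these data known. Replicate numbers only name mice.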

Additional observations from a re-analysis of the deposited data

Results flagged for a closer look

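In a group of 4 mice, 13 values lay far from the other 3 of their group by Dixon's ratio at 95%, among 82 groups checked (15.9%). Chance alone gives about 1 group in 20 for values that were not selected. The V genes checked were picked for a high mean, for being highest in a mouse or for a low p. That rate is therefore no yardstick for them, and the 15.9% is not read as an excess. The values were checked gene by gene, and many genes share the same mice, so the flags are not independent. Ighe (2 reads in 1 mouse, none in the others) and Ighv1-15 (0 reads against 1 in each of the others) pass by the step of single reads. The chance rate does not hold for such genes either.

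WT replicate 1 had 21.7 FPKM of Igkv6-20 against 0 to 2.02 in the other WT mice, 4.67 FPKM of Igkv1-117 against 9.63 to 10.5, 0.0726 FPKM of Ighe against 0, and a kappa V to Igkc ratio of 0.845 against 0.350 to 0.396. WT replicate 3 had 2.19 FPKM of Ighg1 against 0.404 to 0.499. WT replicate 4 had 19.3 FPKM of Igkv1-110 against 3.57 to 5.72.

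KO replicate 1 had 0.958 FPKM of Ighg3 against 0.0505 to 0.109 in the other KO mice, 3.82 FPKM of Ighv9-3 against 0.856 to 1.08, and 0 FPKM of Ighv1-15 against 0.148 to 0.160. KO replicate 2 had 5.60 FPKM of Igkv1-110 against 2.72 to 3.12, 1.25 FPKM of Iglv2 against 0 to 0.156, a lambda share of light chain V FPKM of 10.2% against 3.86% to 4.70%, and an effective number of heavy chain V genes of 32.7 against 18.8 to 20.5. KO replicate 2 is also the library with the highest summed FPKM.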

How the results depend on the processing

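Over 15 alternatives (filters at a mean FPKM of 0.1 and 1, a pseudocount of 0.1, other scaling, limma-voom, array weights and leaving out each mouse), the limma counts of called constant genes, Igj and Mzb1 and of all 185 immunoglobulin genes were 0 each time. An unadjusted p under 0.05 was met by 5 of 35 immunoglobulin genes with the filter at a mean FPKM of 1 and by 15 to 32 under the others. The share over all genes was not counted under these alternatives, so the counts have no background to be read against. The count over all genes, 6, became 10 with array weights and ran from 2 to 11 when a mouse was left out. The sign of Iglc2 turned with a pseudocount of 0.1 (-0.090), limma-voom (-0.19) and array weights (-0.18), and it ran from -0.27 to 0.31 over the mice left out. Ighg1 turned to -0.010 with array weights and ran from -0.067 to 0.40, and Ighg2c ran from -0.36 to 0.40 over the mice left out. The cause was not tested. The other constant genes, Igj, Mzb1 and the 3 V genes with the lowest p kept their sign wherever they could be fitted. Array weights moved Igkc to -0.84, Igj to -0.93, Igha to -1.72 and Ighg2b to 0.0027. The KO minus WT difference in the effective number of heavy chain V genes, 0.40, had no stable sign: it was 1.86 after correction for reads, -1.26 with genes of 3 or more reads, -2.82 without KO replicate 2, -1.07 without WT replicate 1 and up to 1.81 without another mouse. In percentage points, the IgM difference, 12.8, was 22.6 without WT replicate 1 and 6.85 without WT replicate 4, that of IgA, -20.7, was -31.7 and -13.2 without the same mice, and that of IgG, 7.96, was 3.81 without KO replicate 1. The top kappa V share, 3.04 higher in KO, was 1.60 higher from reads and 1.47 to 4.63 higher over the mice left out, the top heavy chain V share ran from -4.62 to -1.60 and the kappa effective number from -5.83 to -1.66. All were within 1 pooled SD of the value reported. With M21 exon lengths, added after the data were seen, the IgM, IgA and IgG differences were 15.9, -22.3 and 6.44. The lambda difference, 0.0060 percentage points from Iglc2 against Igkc alone, came to -0.83 from V genes and ran from -0.11 to 0.16 over the mice left out. No paired analysis was possible because the replicate numbers only count mice within a genotype and the labels tie no WT mouse to a KO mouse. Depth limits the V genes most, with 131 to 304 heavy chain V reads per mouse.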
